A study of Mus musculus with 12 samples.

Results

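Class-switched B cells were sought in the mouse aorta through the heavy chain of the B cell receptor. A barcode, the short tag that marks one droplet, was counted as class-switched when its productive immunoglobulin heavy-chain (IGH) contig with the most unique molecular identifiers (UMIs) carried an IGHA or IGHG constant gene. This rule found 817 barcodes among 4083 with a productive IGH contig and 8280 with any B cell receptor (BCR) contig. Another 3223 barcodes carried IGHM or IGHD and are called unswitched here, and 43 had no constant gene. The mice were male C57BL/6J ApoE-/- mice, aged 8 weeks at the start, in 4 groups of 18 followed over 24 weeks. A normal diet and saline were given to the group labelled Healthy. The AS group received saline with a diet of 1% cholesterol and 10% fat, which is the atherosclerosis model. The MTZ-treated group received the same diet with methazolamide at 25 mg/kg from week 13, for 12 weeks, and the MTZ-preventive group received it for all 24 weeks. The labels write methoxazolamide for this drug, an inhibitor of carbonic anhydrases. Each group is represented by the pooled aortas of 6 mice, sequenced as 1 library each for gene expression, the BCR and the T cell receptor (TCR). No test between conditions could be made, and the intervals in parentheses are 95% limits that cover counting error only.

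Libraries stood apart before any result was read. Apoe (ENSMUSG00000002985), the gene disrupted in all 4 groups by their description, was at 699 CPM (UMIs of a gene scaled to a fixed total) over all barcodes of the library labelled Healthy, from 29416 UMIs. It was at 11.4 CPM in AS, 11.8 CPM in MTZ-treated and 9.01 CPM in MTZ-preventive, so Apoe in the library labelled Healthy does not match the genotype on its label. Of 4705 BCR barcodes of the library labelled Healthy, 96.6% were also among its gene expression barcodes, and for MTZ-preventive it was 92.1% of 2264. For MTZ-treated it was 68.5% of 336 and for AS only 8.10% of 975. Between 209 and 805 gene expression barcodes were shared by a pair of libraries. Of barcodes with a productive IGH contig at most 2 were shared by a pair, and none was switched in more than 1 library.

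Class switching replaces the constant part of the heavy chain while the variable part, and with it the antigen recognised, stays the same. A naive B cell uses Ighm and Ighd, and recombination deletes these genes to bring a downstream constant gene, such as those of IgG or IgA, next to the rearranged V, D and J segments. Switched chains are known from memory B cells and plasma cells, and Jchain encodes the joining chain that links IgA or IgM molecules into polymers. In the RefSeq annotation of GRCm38.p6 the constant genes lie on chromosome 12 in the order Igha (113256204 to 113260236), Ighg2c (113287389 to 113288932), Ighg2b (113304314 to 113307933), Ighg1 (113326541 to 113330523), Ighg3 (113357442 to 113361232), Ighd (113407535 to 113416324) and Ighm (113418826 to 113422730). Jchain lies on chromosome 5 (88519809 to 88527897).

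Nearly all switched barcodes belonged to a few clones. A clone is defined here as barcodes of 1 library with the same V gene, J gene and nucleotide sequence of the third complementarity-determining region (CDR3) of the heavy chain. The 817 barcodes fell into 53 clones, and 764 of them (93.5%) lay in 8 clones of 10 or more barcodes. The CDR3 of these 8 clones are shown because each is a whole group of barcodes in the results that follow. They are written 5′ to 3′ as the contig files give them, with capitals for the first and last codon, which mark the conserved ends of the region.
labelled Healthy, IGHG2B, IGHV1-81: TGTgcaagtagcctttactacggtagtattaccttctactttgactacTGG
labelled Healthy, IGHA, IGHV8-8: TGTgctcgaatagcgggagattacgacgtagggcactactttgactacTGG
labelled Healthy, IGHG2C, IGHV3-5: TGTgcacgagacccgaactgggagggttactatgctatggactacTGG
AS, IGHG2B, IGHV1-42: TGTgcaacctttggtaactacggctacTGG
AS, IGHA, IGHV5-12: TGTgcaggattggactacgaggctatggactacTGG
MTZ-treated, IGHA, IGHV6-3: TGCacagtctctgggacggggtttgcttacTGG
MTZ-treated, IGHA, IGHV5-4: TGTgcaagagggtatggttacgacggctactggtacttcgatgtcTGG
MTZ-preventive, IGHG2C, IGHV2-9-1: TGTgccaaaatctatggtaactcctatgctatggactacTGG
The regions were between 30 and 51 bases long, and all 8 lengths were multiples of 3. IGHJ2 and IGHJ4 were used by 3 clones each, and IGHJ1 and IGHJ3 by 1 clone each. Clones with the same J gene shared their last bases, for example 19 bases between the IGHV3-5 and IGHV2-9-1 clones, and 16 between IGHV1-81 and IGHV8-8, while the middle of the region differed. No switched clone was found in a second library. Clones of any class were rarely shared, with at most 1 in a pair of libraries, although there were 2890 unswitched clones. The absence is thus not particular to switched clones.

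The V segments of these clones are spread along chromosome 12 on the far side of the constant genes. In the same annotation Ighv5-4 lies at 113597448 to 113597741, Ighv5-12 at 113702126 to 113702419, Ighv2-9-1 at 113769857 to 113770142, Ighv3-5 at 114262652 to 114262950, Ighv6-3 at 114391712 to 114392010, Ighv1-42 at 114937154 to 114937544, Ighv8-8 at 115294066 to 115294362 and Ighv1-81 at 115920279 to 115920572. Averaged over the 4 libraries with equal weight, the 5 most frequent V genes of switched barcodes were IGHV1-81 (17.2%), IGHV1-42 (16.7%), IGHV2-9-1 (15.0%), IGHV6-3 (11.8%) and IGHV5-4 (10.1%). Among unswitched barcodes the same genes made up 1.67%, 0.183%, 0.777%, 1.07% and 1.08%. Each of the 5 was carried by 1 or 2 switched clones over all libraries, so that these shares describe clone sizes and not a preference among clones.

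The switched share of heavy-chain barcodes was 61.8% (55.9 to 67.4; 178 of 288 barcodes) in AS and 58.7% (49.6 to 67.4; 74 of 126) in MTZ-treated. The intervals of these 2 libraries overlap widely, and their order turned with contigs of at least 3 UMIs (49.1% and 80.5%), with the gene expression list only (48.4% and 53.5%) and without clones of 10 or more barcodes (16% and 21.3%). The library labelled Healthy had 18.7% (17.2 to 20.3; 480 of 2562) and MTZ-preventive had 7.68% (6.18 to 9.41; 85 of 1107). The ratio to AS was 0.303 (0.255 to 0.362) for the library labelled Healthy, 0.95 (0.715 to 1.25) for MTZ-treated and 0.124 (0.0948 to 0.162) for MTZ-preventive. These shares count barcodes that are not independent, because most share a clone. With each clone counted once, switched clones were 7 of 1969 in the library labelled Healthy (0.356%), 6 of 22 in AS (27.3%), 8 of 44 in MTZ-treated (18.2%) and 32 of 951 in MTZ-preventive (3.36%). These totals include barcodes without a constant gene, and the 1 clone with barcodes of both classes counts in each class. Among switched and unswitched clones alone the shares were 0.359%, 28.6%, 19.0% and 3.43%. The library labelled Healthy then had the lowest share instead of MTZ-preventive, as the plot of the share by library shows.

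**Figure D1:**
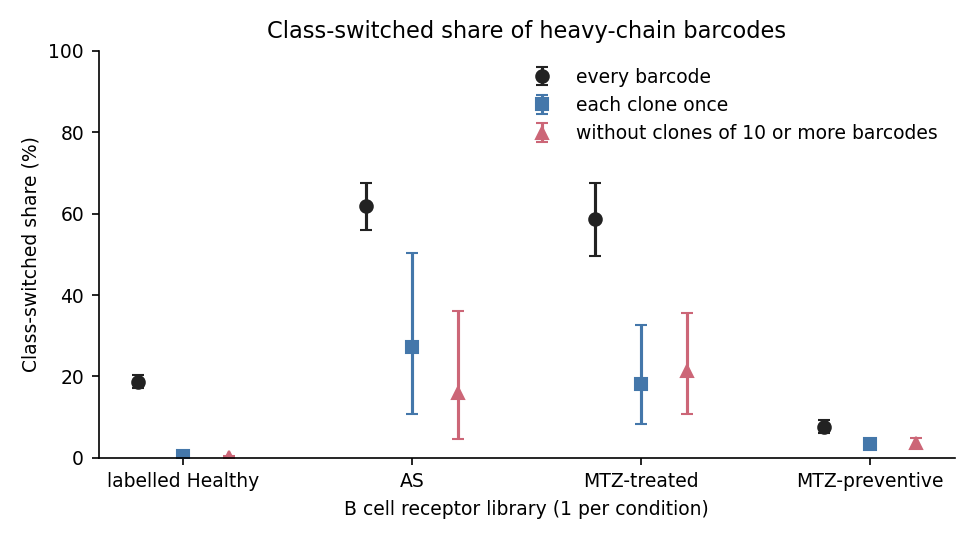
Class-switched share of heavy-chain barcodes (%, y axis) in the 4 BCR libraries (x axis), 1 per condition, counting every barcode (circles), each clone once (squares) or only barcodes outside clones of 10 or more (triangles). Bars are 95% Clopper-Pearson limits of counting error, and the library labelled Healthy falls from 18.7% to 0.356% when each clone is counted once.

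Isotypes differed between libraries in step with the large clones. IGHG2B made up 68.5% (64.2 to 72.7) of switched barcodes of the library labelled Healthy, from 2 clones. In AS the same isotype made up 66.9% (59.4 to 73.7), from 1 clone. IGHA made up 94.6% (86.7 to 98.5) in MTZ-treated, from 5 clones, against 19.2% in the library labelled Healthy and 31.5% in AS, from 1 and 2 clones. IGHG2C made up 68.2% (57.2 to 77.9) in MTZ-preventive, and 50 of those 58 barcodes were the IGHV2-9-1 clone. IGHG2B was seen in 0 of 74 switched barcodes of MTZ-treated, which allows a share of up to 4.05%, that of 3 barcodes (upper Clopper-Pearson limit 4.86%). IGHG1 and IGHG3 were rare everywhere, with 3 barcodes each in all. MTZ-preventive had the most switched clones, 32, but 12 of them rested on contigs of 1 UMI and 11 had a contig of 3 or more, against 5, 5 and 6 such clones in the other libraries. Of the 32 clones, 14 were IGHG2B, 9 IGHG2C, 6 IGHA, 2 IGHG1 and 1 IGHG3. No clone held more than 1 switched isotype. Over all libraries 465 switched barcodes were IGHG2B, 225 were IGHA and 121 were IGHG2C.

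The share of barcodes in clones was higher among switched than unswitched barcodes in all 4 libraries, by little in AS. The share in clones of 2 or more barcodes was 99.2% among switched and 7.76% among unswitched barcodes in the library labelled Healthy, 95.9% and 38% in MTZ-treated, and 67.1% and 12.6% in MTZ-preventive. In AS it was 97.8% and 94.5%. In the library labelled Healthy the largest switched clone held 328 barcodes and the largest unswitched clone 30. The same sizes were 119 and 31 for AS, 35 and 15 for MTZ-treated, and 50 and 30 for MTZ-preventive. Single-barcode clones made up 28 of the 32 switched clones in MTZ-preventive, against 4 of 7, 4 of 6 and 3 of 8 in the other libraries. The barcodes of a large clone were not near copies of each other, since the closest pairs differed at 3 to 6 positions of the tag.

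Each large clone had 1 main light chain. A light chain was present in 768 switched barcodes, of which 38 had a lambda chain, and 35 of those were the MTZ-treated IGHV6-3 clone with IGLV1. In the other clones the partner was a kappa chain. It was IGKV5-39 for IGHV1-81 (291 of 295 barcodes with a light chain), IGKV5-43 for IGHV8-8 (92 of 92), IGKV13-85 for IGHV3-5 (56 of 56), IGKV9-124 for IGHV1-42 (116 of 116), IGKV1-135 for IGHV5-12 (49 of 49), IGKV1-133 for IGHV5-4 (29 of 29) and IGKV4-70 for IGHV2-9-1 (47 of 47). The light chain of the IGHV1-42 clone was also found in 315 AS barcodes with no heavy chain, more than the 119 that carried the clone. For the other 7 large clones this number lay between 0 and 22.

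The heavy-chain contigs of large switched clones rested on few UMIs. In the library labelled Healthy the IGHV1-81 barcodes had between 1 and 14 UMIs with a median of 4, and the IGHV8-8 barcodes between 1 and 17 with a median of 7. The IGHV3-5 barcodes had a median of 21.5, with the lowest at 10, 1 barcode at 923 and the next at 53. In AS the medians were 1 (1 to 4) for IGHV1-42 and 2 (1 to 8) for IGHV5-12, and 54.5% of all switched barcodes there had a single UMI. In MTZ-treated they were 8 (1 to 18) for IGHV6-3 and 5 (1 to 11) for IGHV5-4, and in MTZ-preventive 9.5 (2 to 21) for IGHV2-9-1. Some unswitched clones of 10 or more barcodes had higher medians. These were 45 (IGHV2-9) and 58 (IGHV11-2) in the library labelled Healthy, and 95 (IGHV14-3) and 133 (IGHV1-5) in MTZ-preventive. The other unswitched clones of this size had medians of 1 to 3. Counting alone gives a variance equal to the mean where counts of 0 are included. Here a barcode entered only with at least 1 UMI, so at low means counting alone gives a variance below the mean. The variance over the mean was 0.228 for IGHV1-42, most of whose barcodes had the lowest possible count, 0.596 for IGHV5-12, 1.31 for IGHV1-81, 1.20 for IGHV8-8, 1.75 for IGHV6-3, 1.63 for IGHV5-4 and 2.19 for IGHV2-9-1, and it was 378 for IGHV3-5 with its barcode of 923 UMIs and 2.18 without it.

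**Figure D2:**
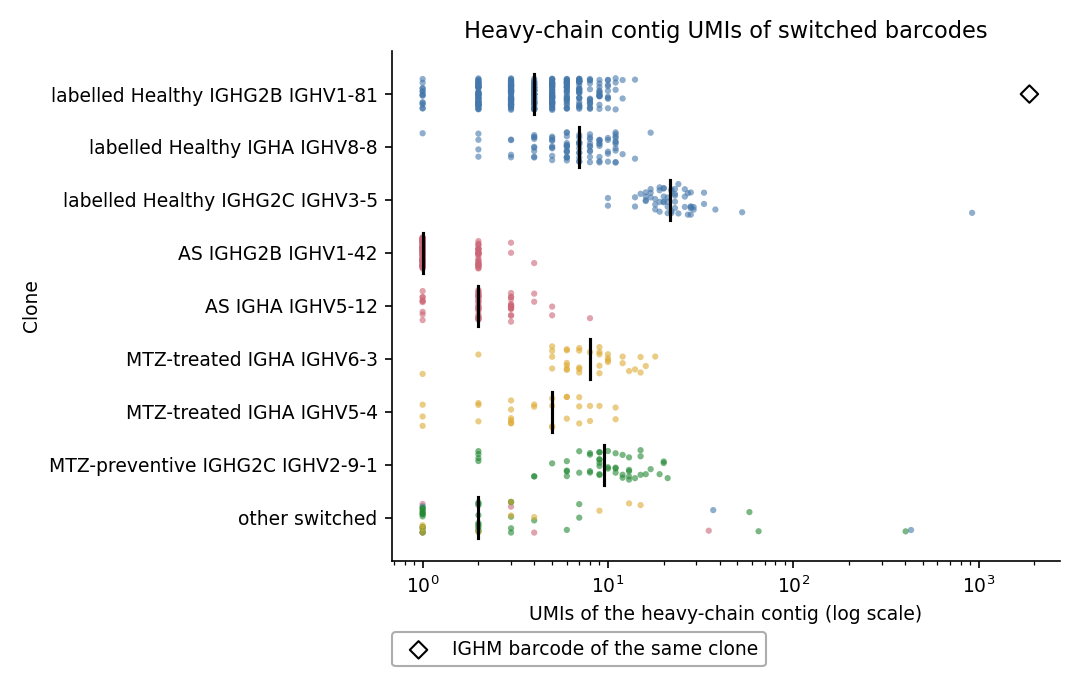
UMIs of the heavy-chain contig (x axis, log scale) for each switched barcode (points, coloured by library) in the 8 large clones and in all other switched barcodes (y axis), with medians as black lines. The open diamond is the single IGHM barcode of the IGHV1-81 clone, at 1881 UMIs, against at most 14 in the 328 IGHG2B barcodes.

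A single clone held both switched and unswitched barcodes. Beside its 328 IGHG2B barcodes, the IGHV1-81 clone of the library labelled Healthy had 1 IGHM barcode with 1881 heavy-chain UMIs. In the gene expression counts that barcode had 10151 UMIs, of which 41.0% were immunoglobulin. It had 767 UMIs of Ighm, 672 of Jchain, 341 of Igkc and 13 of Ighg2b, and a UMI of 19 of the 20 plasma cell markers listed for this work, with 34 of Mzb1 and 23 of Txndc5. The highest Ighg2b count of any switched barcode in that library was 9. The barcode of 923 UMIs in the IGHV3-5 clone was similar in kind, with 7375 UMIs of which 58.4% were immunoglobulin, 324 of Ighg2c, 501 of Jchain and 14 plasma cell markers. Among switched barcodes of the other 7 large clones, none had more than 21 heavy-chain UMIs.

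Switched barcodes had higher median heavy-chain UMIs than unswitched ones in 3 of the 4 libraries. Median UMIs for switched and unswitched barcodes were 5 and 2 in the library labelled Healthy, 1 and 1 in AS, 6 and 2 in MTZ-treated, and 7 and 2 in MTZ-preventive. With each clone as 1 value, the log2 difference was 1.29 in AS and 0 in MTZ-preventive, so the library without a difference changed. The mean difference of the log2 medians was 1.18 ± 0.810 (SD, n = 4 libraries), with p = 0.25 in a two-sided exact permutation test over sign flips, for which 0.13 is the smallest value that 4 libraries allow, so that the test could not reach 0.05.

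Of the 817 switched barcodes, 564 were also in the gene expression libraries, and 521 of these belonged to the large clones. Of switched and unswitched barcodes, 93.5% and 98.6% were found there for the library labelled Healthy, and 72.9% and 96.4% for MTZ-preventive. The shares were 51.4% and 64.0% for MTZ-treated and 8.43% (15 of 178) and 14.7% for AS. Within MTZ-treated, 33 of 35 IGHV6-3 barcodes were found and 1 of 29 of the IGHV5-4 clone. Switched barcodes had fewer gene expression UMIs than unswitched ones in each library, and unswitched clones of 10 or more barcodes were also shallow. For the library labelled Healthy their median was 796 gene expression UMIs, against 2083 in unswitched barcodes. The medians of both classes were 893 and 1173 for AS, 865 and 1453 for MTZ-treated, and 940.5 and 1711 for MTZ-preventive. Of switched barcodes in these 4 libraries, in that order, 25.2%, 33.3%, 21.1% and 43.5% passed the quality limits that the study applied to cells, against 93.1%, 68.8%, 71.9% and 89.7% of unswitched barcodes. The spread of depth differed between the large clones. The quartiles ran from 628 to 833 UMIs for IGHV1-81, from 807.8 to 1020.5 for IGHV8-8, from 1297 to 1662 for IGHV3-5, from 767 to 899 for IGHV6-3 and from 684.5 to 887 for IGHV2-9-1, and from 1060 to 3245 for the 31 switched MTZ-preventive barcodes outside its large clone. The whole range was 642 to 1808 for IGHV8-8 but 512 to 8533 for IGHV1-81, whose coefficient of variation of 0.685 was no lower than the 0.603 of those 31 barcodes. It was 0.544 for IGHV3-5, 0.206 for IGHV8-8, 0.261 for IGHV6-3 and 0.199 for IGHV2-9-1.

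**Figure D3:**
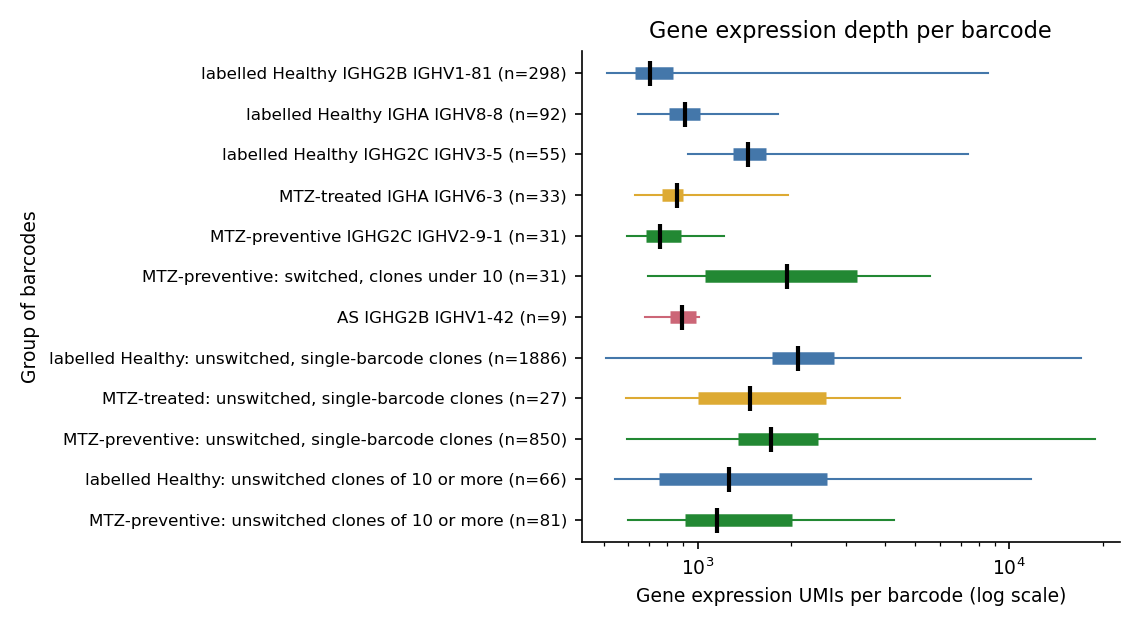
Gene expression UMIs per barcode (x axis, log scale) in clones and groups of barcodes (y axis, number of barcodes in brackets), with the median as a black mark, the quartiles as a thick bar and the whole range as a thin line. Large switched clones have medians of 704 to 1448 UMIs, and unswitched barcodes of single-barcode clones of 1468 to 2106. The unswitched clones of 10 or more barcodes, at 1265.5 in the library labelled Healthy and 1151 in MTZ-preventive, lie within the range of the large switched clones.

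The isotype read from the contigs was also present in the gene expression counts, which the rule did not use. BCR libraries of this kind are enriched from the same cDNA as the gene expression library, so both readouts share the content of a droplet. Of switched barcodes in the library labelled Healthy, 78.6% had a UMI of a switched constant gene, against 1.13% of unswitched barcodes. Where 1 such gene was most abundant it was that of the contig in 349 of 351 barcodes. In AS 60% of switched barcodes had such a UMI and the contig's gene led in 9 of 9, and in MTZ-treated 81.6% had one and it led in 30 of 30. In MTZ-preventive only 29.0% (18 of 62) had one, and the contig's gene led in 16 of 17 of those with 1 leading gene. Reads of Ighg2b and Ighg2c, and of related V genes, can be split between near-identical genes by the counting. The V gene of the clone was counted as well. Ighv1-81 had a UMI in 99.0% of the IGHV1-81 barcodes, against 3.10% of unswitched barcodes in that library, and Ighv6-3 in 100% of the IGHV6-3 barcodes, against 0 of 32, which allows a share of up to 9.38%. Ighm, in turn, had a UMI in 14.3% of switched and 68.3% of unswitched barcodes of the library labelled Healthy, and in 23.7% of barcodes there with a TCR contig alone. These shares were 9.13%, 28.5% and 4.28% after every barcode was thinned to 500 UMIs, so the order of switched and TCR barcodes depends on depth.

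The 3 genes taken as markers were present, but not in all libraries alike. Igha (ENSMUSG00000095079) was at 2036 CPM in switched barcodes of MTZ-treated, 181 CPM in the library labelled Healthy, 214 CPM in AS and 75.5 CPM in MTZ-preventive. In unswitched barcodes it was at no more than 3.98 CPM in the library labelled Healthy and MTZ-preventive. Unswitched barcodes of AS and MTZ-treated had no Igha UMI, where a count of 0 allows up to 142 and 52.7 CPM. Ighg2b (ENSMUSG00000076613) was at 1381, 320, 28.7 and 798 CPM in switched barcodes of the library labelled Healthy, AS, MTZ-treated and MTZ-preventive, from 611, 6, 1 and 74 UMIs. Of the 74 UMIs in MTZ-preventive, 66 were in 2 barcodes of an IGHV2-9 clone, and without them the level there was 90.7 CPM. Jchain (ENSMUSG00000067149) was at 3445, 987, 648 and 723 CPM in switched and at 1000, 2841, 386 and 2627 CPM in unswitched barcodes of the same libraries. It was thus above the unswitched level in the library labelled Healthy and MTZ-treated and below it in AS and MTZ-preventive. In MTZ-treated the ratio was 1.68 (0.886 to 3.18), from 22 UMIs in each class, so its direction lay within counting error. As a share of barcodes, Jchain had a UMI in 50.1% of switched and 3.54% of unswitched barcodes in the library labelled Healthy, and in 0.168% of the 1192 barcodes with a TCR contig alone, at median depths of 796, 2083 and 3208 UMIs. After every barcode was thinned to 500 UMIs, which left none out, these shares were 38.1%, 3.44% and 0 of 1192, which allows a share of up to 0.252%. Of the 1468 Jchain UMIs of these switched barcodes, 1057 were in the IGHV3-5 clone, and 501 of these in 1 barcode.

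The large clones differed from each other in the immunoglobulin genes they carried. The IGHG2C IGHV3-5 clone of the library labelled Healthy was the one with the most, with 11% of its UMIs from immunoglobulin genes. Ighg2c, Igkc and Jchain had a UMI in each of its 55 barcodes, and Ighg2c stood at 14499.9 CPM and Jchain at 13405 CPM. Without the barcode of 923 heavy-chain UMIs these levels were 11828 and 7337 CPM, and the immunoglobulin share was 6.73%. The IGHA IGHV8-8 clone had an Igha UMI in 55.4% and a Jchain UMI in 68.5% of 92 barcodes, at 922 and 1516 CPM. The IGHG2B IGHV1-81 clone had Ighg2b in 81.5% and Jchain in 35.2% of 298 barcodes, at 2502 and 562 CPM. In MTZ-treated the IGHA IGHV6-3 clone had Igha in 84.8% and Jchain in 51.5% of 33 barcodes. Igkc had no UMI there and Iglc1, a lambda constant gene, had one in 33.3%, and its contigs carried the lambda chain IGLV1. In MTZ-preventive the IGHG2C IGHV2-9-1 clone had Ighg2c in 19.4% and Jchain in 22.6% of 31 barcodes.

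Genes of other cell types were present in these clones, and which ones differed between clones. Col1a1, a collagen of fibroblasts, had a UMI in 100% of IGHV8-8 barcodes and in 100% of IGHV6-3 barcodes, and Acta2, the actin of smooth muscle, in 58.7% and 93.9%. In the IGHV1-81 clone Acta2 was in 88.9% and Col1a1 in 52.0%, in IGHV3-5 in 18.2% and 76.4%, and in IGHV2-9-1 in 51.6% and 22.6%. In unswitched barcodes Col1a1 was in 11.6% in the library labelled Healthy and 18.8% in MTZ-treated. Cd79a, the signalling chain of the B cell receptor, had a UMI in 29.5% of IGHV1-81, 38% of IGHV8-8, 45.5% of IGHV3-5, 3.03% of IGHV6-3 and 19.4% of IGHV2-9-1 barcodes, against 93.6%, 84.4% and 84.1% of unswitched barcodes in the libraries labelled Healthy, MTZ-treated and MTZ-preventive. The 8 fibroblast genes together stood at 22880 CPM in IGHV8-8 and 28821 CPM in IGHV6-3 barcodes, with 11662 and 10823 CPM in the barcodes of their libraries without any receptor contig. The 8 smooth muscle genes stood at 11591 CPM in IGHV1-81 barcodes, with 12039 CPM in barcodes without a receptor contig and 3102 CPM in unswitched single-barcode clones of that library.

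**Figure D4:**
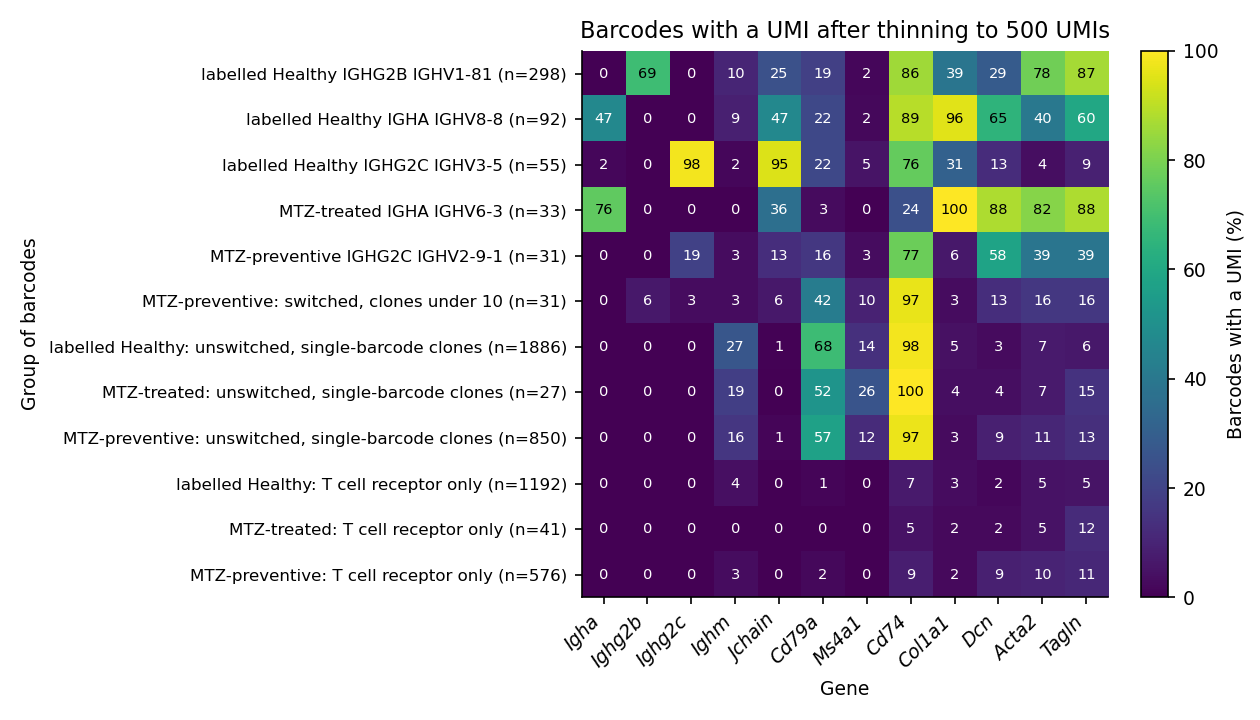
Share of barcodes with a UMI (%, colour and number) of 12 genes (x axis) after each barcode was thinned to 500 UMIs, in the large switched clones, other switched barcodes, unswitched barcodes and barcodes with a TCR contig alone (y axis). Col1a1 is in 95.7% of IGHV8-8 and 100% of IGHV6-3 barcodes, Acta2 in 78.2% of IGHV1-81 barcodes, and Cd79a in 41.9% of other switched barcodes of MTZ-preventive.

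By list, 3 or more of the 20 mature B cell markers were found in 63 of 298 IGHV1-81 barcodes, 23 of 92 IGHV8-8, 19 of 55 IGHV3-5, 0 of 33 IGHV6-3 and 1 of 31 IGHV2-9-1 barcodes. The 20 plasma cell markers reached 3 or more in 39, 25, 44, 5 and 1 of them. Fibroblast markers did so in 158, 92, 38, 33 and 13. After thinning to 500 UMIs the numbers were 23, 7, 2, 0 and 0 for mature B cell markers, 18, 8, 15, 2 and 1 for plasma cell markers and 97, 90, 5, 32 and 6 for fibroblast markers. In unswitched barcodes plasma cell markers reached 3 or more in 40.5%, 43.75% and 41.1% in the libraries labelled Healthy, MTZ-treated and MTZ-preventive. After thinning these unswitched shares were 4.97%, 6.25% and 8.07%. The IGHV3-5 clone had 9.09% for fibroblast and 3.64% for smooth muscle markers after thinning, against 5.90% and 4.03% of unswitched barcodes of its library. At full depth the values were 69.1% and 12.7%, against 8.90% and 6.35%, at median depths of 1448 and 2083 UMIs. Endothelial markers reached 3 or more in 29 of the 55 IGHV3-5 barcodes (52.7%), and in 3 after thinning (5.45%). In unswitched barcodes of that library these shares were 2.80% and 0.443%. In the 9 AS barcodes of the IGHV1-42 clone all 20 mature B cell markers were at 0. The 8 neutrophil markers, led by S100a9, reached 3 or more in 4 of these 9 and summed to 11079 CPM, with 6688 CPM in AS barcodes without a receptor contig. For the large clones the name class-switched thus states the isotype of the contig, and most of their barcodes held fewer than 3 mature B cell markers. The unswitched clones of 10 or more barcodes also held few of these markers. After thinning, 3 or more mature B cell markers were found in 4.55% of their 66 barcodes in the library labelled Healthy and in 12.3% of 81 in MTZ-preventive, against 65.2% and 50.6% of all unswitched barcodes. Fibroblast markers reached 3 or more in 45.5% of those 66 and 2.47% of those 81 barcodes, and plasma cell markers in 72.7% and 46.9%. The part of RNA from outside the cell in these values was not tested. Over all switched barcodes the plasma cell list summed to 5491, 4496, 2119.6 and 2435 CPM in the library labelled Healthy, AS, MTZ-treated and MTZ-preventive, with 0, 6, 8 and 5 of its 20 genes at 0. Jchain was its most abundant gene, except in MTZ-treated, where it was Ssr4. Sdc1, Prdm1, Tnfrsf17 and Derl3 were at 0 in the last 3 of these libraries, where a count of 0 allows up to 164, 88.3 and 33.4 CPM.

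The spread of gene expression within the large switched clones is given beside that of counting. After thinning to 500 UMIs, the variance over the mean of the 50 most abundant genes had a median of 0.998 in IGHV8-8, 0.95 in IGHV6-3, 0.947 in IGHV3-5, 1.08 in IGHV1-81 and 1.14 in IGHV2-9-1, where pure counting gives about 1. It was 1.25, 1.30 and 1.34 in the unswitched single-barcode clones of the library labelled Healthy, MTZ-treated and MTZ-preventive, and 1.14 and 1.39 in the unswitched clones of 10 or more barcodes of the first and last of these. It was 1.5 in the 31 switched MTZ-preventive barcodes outside its large clone. Immunoglobulin genes, Gm42418 and AY036118 were left out of these values. As a description across 500 genes, which are not independent, the summed profile of IGHV1-81 barcodes correlated at r = 0.872 with shallow barcodes of the same library that had no receptor contig, and at r = 0.752 with unswitched single-barcode clones. For IGHV8-8 the values were 0.828 and 0.65, for IGHV3-5 0.752 and 0.691, for IGHV6-3 0.751 and 0.371, and for IGHV2-9-1 0.861 and 0.779. The unswitched clones of 10 or more barcodes of the library labelled Healthy had the same order, at 0.829 and 0.75, and those of MTZ-preventive were at 0.771 and 0.78. For the 31 other switched barcodes of MTZ-preventive the order was turned, at 0.773 and 0.903. Unswitched single-barcode clones themselves correlated with the shallow barcodes at 0.771, 0.604 and 0.772 in the libraries labelled Healthy, MTZ-treated and MTZ-preventive. IGHV3-5, at 0.752, lay below that value of its library. All profiles were thinned to 7000 UMIs first, and what set these likenesses was not tested.

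Switched barcodes outside the large clones could be described in MTZ-preventive, the one library with more than 4 of them in the gene expression data. There Cd79a had a UMI in 77.4% of 31 barcodes, at 1357 CPM, Cd74, the invariant chain of MHC class II, stood at 19562 CPM and Ms4a1, which encodes CD20, had a UMI in 29.0%. Unswitched single-barcode clones of that library had Cd79a in 89.1%, at 1781 CPM, Cd74 at 18978 CPM and Ms4a1 in 36.8%. Mature B cell markers reached 3 or more in 67.7% of the 31, against 94.5% of those unswitched barcodes, and in 25.8% against 56.2% after thinning to 500 UMIs. Their median depth was 1932 UMIs, against 1722 in the unswitched clones. The isotype calls rest on few UMIs, since 12 of the 32 switched clones of that library had a highest contig of 1 UMI and 9 of 2 UMIs. A switched constant gene had a UMI in 38.7% of the 31 barcodes, and Ighm or Ighd in 5 of them. The other 3 libraries had 4 such barcodes each. Mature B cell markers reached 3 or more in 3 of them for the library labelled Healthy, 1 for AS and 1 for MTZ-treated. In MTZ-treated 3 of the 4 had 3 or more smooth muscle markers.

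A few single barcodes had strong plasma cell profiles. In the library labelled Healthy an IGHG3 barcode with IGHV3-6 had 432 heavy-chain UMIs and 17239 gene expression UMIs, with 65 of Ighg3, 99 of Jchain, 65 of Mzb1 and 41 of Xbp1, a transcription factor of secretory cells, and 17 plasma cell markers. It also had 11 mature B cell markers, with 49 UMIs of Cd79a, and 19 UMIs of Ighm. An IGHG2C barcode with IGHV14-2 in the same library had 37 heavy-chain UMIs, 78 of Ighg2c, 19 of Ighm and 14 plasma cell markers. Whether these 2 barcodes held more than 1 cell was not tested. In AS the strongest was an IGHG2C barcode with IGHV1-59, with 35 heavy-chain UMIs, 110 UMIs of Ighg2c among 804 in all, and 9 plasma cell markers. In MTZ-preventive an IGHG2C barcode with IGHV9-4 had 404 heavy-chain UMIs, and 78.0% of its 2050 UMIs were immunoglobulin, but only 4 plasma cell markers were seen. In MTZ-treated no switched barcode had more than 18 heavy-chain UMIs. Of the Ighg2c UMIs of AS, 115 of 116 lay in switched barcodes, so that its level of 6141 CPM among them rests mostly on this single barcode.

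Gene expression of switched and unswitched barcodes was compared within libraries. Counts were summed over each class in each of the 4 libraries and fitted with the library as a block, with immunoglobulin genes left out. The sums held 296270, 12315, 21624 and 65229 UMIs in tested genes for switched barcodes of the library labelled Healthy, AS, MTZ-treated and MTZ-preventive. These depths let 901 genes be tested. At an adjusted p under 0.05 by edgeR's quasi-likelihood test, 34 genes were called (3.77% of those tested), 31 higher (3.44%) and 3 lower (0.333%) in switched barcodes. The median log2 change of all 901 genes was -0.01. Leaving out 1 library gave 203 calls without MTZ-treated, 139 without MTZ-preventive, 33 without the library labelled Healthy and 32 without AS. Without the filter on low counts 99 genes were higher and 117 lower, so the split of 31 higher and 3 lower depends on that filter. With the study's quality limits on barcodes only 2 libraries had enough of them, 41 of 8330 genes were called, and 3 of the 34 were among these. AY036118 and Lars2, which share sequence with ribosomal RNA and were chosen after their values were seen, were among the higher calls (log2 change 1.95 ± 0.42, adjusted p = 0.0294, and 1.24 ± 0.30, adjusted p = 0.0409). Gm42418, of the same kind, was at 1.24 ± 0.34 (adjusted p = 0.0591). Their part in the other changes was not tested. Of the called genes named below, Ramp2 and Ifitm3 were still called in the fit with the study's quality limits. As 3 of the 34 were called there, most of the calls named below were lost under those limits. As 521 of the 564 switched barcodes belong to large clones, the comparison is largely one between those clones and unswitched barcodes, and too few barcodes were left for a fit without them.

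Cd79a and Ebf1, genes of mature B cells, fell in switched barcodes. Of 20 listed genes 9 were tested, 2 fell and none rose, beside 0.333% called lower over all genes tested, and the median log2 change of the 9 was -1.45. Cd79a (ENSMUSG00000003379) was at 584, 219, 177 and 1056 CPM in switched barcodes of the library labelled Healthy, AS, MTZ-treated and MTZ-preventive. In unswitched barcodes it was at 2332, 1752, 2019 and 1685 CPM. Every switched value lay below every unswitched one, and the log2 change was -1.88 ± 0.41 (SE, adjusted p = 0.0312). Ebf1, a transcription factor of B cell identity, fell by 1.45 ± 0.31 on the log2 scale (adjusted p = 0.0255). Ly6d was at 317, 1480, 147 and 378 CPM against 726, 900, 1369 and 724 CPM, and it was not called (log2 change -0.89 ± 0.45).

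MHC class II genes, which present antigen to T cells, had the same direction without a call. Of 9 listed genes 8 were tested, all 8 were lower in all 4 libraries, none passed the threshold and the median was -1.44. Cd74 was at 5108, 4222, 1737 and 14878 CPM in switched and at 19130, 13162, 15886 and 17908 CPM in unswitched barcodes (log2 change -1.56 ± 0.40, adjusted p = 0.0541). The gap was narrowest in MTZ-preventive, where the ratio was 0.831, and widest in MTZ-treated, where it was 0.109. Ptprcap, which encodes a protein bound to the phosphatase CD45 of lymphocytes, was called, at 49.3, 164, 58.9 and 89.0 CPM against 253, 237, 211 and 203 CPM (log2 change -1.56 ± 0.38, adjusted p = 0.0404). Its direction lay within counting error in AS, with 3 against 5 UMIs (ratio 0.695, 0.108 to 3.57). It did so in MTZ-treated too, with 2 against 12 UMIs (ratio 0.280, 0.0304 to 1.26).

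Plasma cell genes showed no common direction. Of 20 listed genes 8 were tested, none was called, 4 had a change above 0 and the median was 0.05. Jchain had a log2 change of -0.04 ± 0.71, with opposite directions between libraries as given above. Ssr4, part of the translocon complex of the endoplasmic reticulum, was at 354, 822, 707 and 222 CPM against 204, 331, 298 and 363 CPM (log2 change 0.75 ± 0.37, adjusted p = 0.229). Mzb1, a chaperone of antibody assembly, was at 305, 384, 88.3 and 200.2 CPM against 302, 189, 597 and 386 CPM. Of 22 genes of folding and secretion 10 were tested, none was called and the median was 0.34. Hspa5, the main chaperone of that list, was lower in all 4 libraries, at 1169, 493, 529.9 and 1089.8 CPM against 1597, 852, 1422 and 1438 CPM, and was not called (adjusted p = 0.251).

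Listed genes of stromal cells lay above 0, and 2 of the 34 calls were among them. Of the 8 smooth muscle genes 5 were tested and 2 rose, beside 3.44% called higher over all genes tested, and their median log2 change was 1.38. Tagln was at 2679.6, 603, 3327 and 2479.7 CPM in switched and at 1112, 379, 1001 and 1293 CPM in unswitched barcodes, higher in 4 of 4 libraries (log2 change 1.38 ± 0.30, adjusted p = 0.0265). In AS this was 11 against 8 UMIs, so the direction there lay within counting error (ratio 1.59, 0.583 to 4.56). Tpm2, a tropomyosin, rose by 1.61 ± 0.29 (adjusted p = 0.0161). Acta2 was at 2485, 548, 2591 and 1724 CPM against 1020.2, 426, 1036 and 1321 CPM and was not called (adjusted p = 0.0657). The 5 fibroblast genes tested had the highest median, 2.74, and were higher in all 4 libraries, but none was called. Col1a1 was at 2478, 384, 6506 and 156 CPM against 419.7, 189, 123 and 93.5 CPM, with ratios from 1.67 in MTZ-preventive to 52.9 in MTZ-treated (log2 change 2.77 ± 0.82, adjusted p = 0.0884). Of the 8 endothelial genes 2 were tested and none was called, with a median of 1.19. Summed over the lists, fibroblast genes were at 8947, 8389, 24464 and 3013 CPM in switched and 2100, 852, 492 and 2199 CPM in unswitched barcodes. Smooth muscle genes were at 7534, 1645, 9509 and 6505 CPM against 3134, 1373, 2756 and 3817 CPM. The most abundant were Col1a1, Dcn, Col3a1 and Gsn for the first list and Tagln for the other. In AS Pdgfra, Cnn1, Smtn and Lmod1 had no UMI in switched barcodes. The part of such RNA in the other changes was not tested.

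Of the genes outside the lists that were called and had the same direction in all 4 libraries, the 10 with the highest change were Ramp2, Ifitm2, Serpinf1, Gng11, Serping1, Rcn3, Igfbp4, Clec3b, Selenop and Ifitm3. A gene could pass the filter on low counts through its switched sums alone. Serpinf1, for example, was at 483, 384, 353 and 167 CPM in switched against 81.0, 0, 17.6 and 71.4 CPM in unswitched barcodes. The part of the filter in this ranking was not tested. Ramp2, a receptor partner of adrenomedullin signalling, was at 490.4, 603, 412 and 267 CPM against 41.1, 331, 17.6 and 84.4 CPM (log2 change 2.70 ± 0.53, adjusted p = 0.0243). In AS this was 11 against 7 UMIs, a direction within counting error (ratio 1.82, 0.644 to 5.54), and in MTZ-treated 14 against 1. Ifitm2 and Ifitm3, interferon-induced membrane proteins, rose by 2.56 ± 0.42 and 2.14 ± 0.41. Ifitm3 was at 1762, 2138, 1295 and 923 CPM in switched and 235, 947, 193 and 444 CPM in unswitched barcodes. Serpinf1, Serping1 and Clec3b, secreted proteins of fibroblasts and plasma, rose by 2.55 ± 0.50, 2.43 ± 0.48 and 2.32 ± 0.42. Igfbp4, a binding protein of insulin-like growth factors, was at 669, 3345, 1325 and 923 CPM against 163, 521, 105 and 460.1 CPM (log2 change 2.34 ± 0.41). Rcn3, Selenop and Gng11 rose by 2.35 ± 0.38, 2.31 ± 0.39 and 2.52 ± 0.54. All 10 genes had an adjusted p between 0.0152 and 0.0255 by the same test. In AS Gng11 rested on 6 against 3 UMIs and Rcn3 on 3 against 0, so these directions lay within counting error. The same held for Gng11 in MTZ-preventive (ratio 2.06, 0.801 to 4.44). Cd9, on the list of B-1 cell genes and also expressed by many stromal cells, was at 657, 548, 1325 and 434 CPM against 123, 284, 246 and 204 CPM (log2 change 2.01 ± 0.35, adjusted p = 0.0153), and it was the only gene of that list of 8 that was tested.

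**Figure D5:**
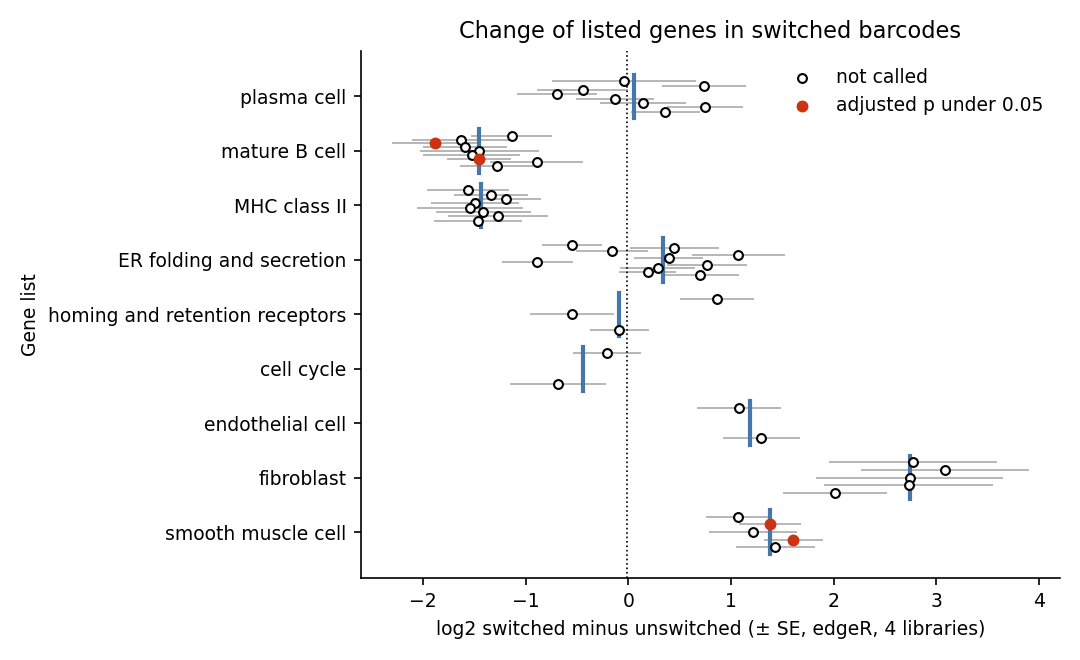
Log2 difference between switched and unswitched barcodes (x axis, ± SE, edgeR over 4 libraries) for the tested genes of each list (y axis), with called genes in red, list medians as blue lines and the median of all 901 genes as a dotted line. Mature B cell and MHC class II genes lie below 0, and fibroblast and smooth muscle genes above it.

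Genes that mark the stages between switching and secretion were too rare to be tested. None of the 10 germinal centre and switching genes and none of the 10 memory B cell genes passed the filter on low counts. Mef2b, Rgs13 and Gcsam, genes of germinal centre cells, had no UMI in switched barcodes of any library. The depth allows up to 7.04, 164, 88.3 and 33.4 CPM for a count of 0 in the library labelled Healthy, AS, MTZ-treated and MTZ-preventive, so that lower levels were not detectable. The summed level of the germinal centre list was 159.6, 164, 58.9 and 300.2 CPM in switched and 206, 94.7, 87.8 and 183 CPM in unswitched barcodes, most of it from Lmo2 in 3 of the 4 libraries.

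IgA and IgG barcodes could be set side by side in the library labelled Healthy alone, which had 92 and 357 of them, and no test was possible. Jchain was at 1516 CPM in IgA and 3921 CPM in IgG barcodes, and the IgG level fell to 1076 CPM, below that of IgA, when the IGHV3-5 clone was left out. Col1a1 was at 6952 and 1372 CPM, and Acta2 at 947 and 2865 CPM. Cd79a was at 509 and 603 CPM and Cd74 at 5471 and 5018 CPM, closer to each other than the stromal genes were. All 92 IgA barcodes were 1 clone and 298 of the 357 IgG barcodes another, so that isotype and clone cannot be told apart.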

How the data were processed

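Gene expression values are raw counts of UMIs per gene and barcode, which the authors made with Cell Ranger 5.0.0 by the file headers. The submitters' processing notes name STAR and mm10. Deposited receptor files list productive contigs with counts of UMIs and reads, V, J and constant genes and CDR3 sequences. They hold no framework sequence, so V region mutations were not compared. Members, gene lists, named genes and tests were chosen with earlier results of these data known. Ties between contigs were broken by reads. Symbols on several lines (38) were summed. CPM uses totals without immunoglobulin genes, except for immunoglobulin genes themselves. Summed counts of at least 10 barcodes a side were tested with edgeR 4.0.16 (TMM, filterByExpr, robust glmQLFit, library as block, Benjamini-Hochberg over 901 genes). Symbols were those of the files. Genes were named by a fixed rule: immunoglobulin genes and Jchain, 2 to 4 examples a list, and the 10 highest and 10 lowest of the other called genes with 1 direction in all libraries, of which 1 was lower. The lists besides those described were homing receptors (3 of 11 tested, 0 called), BAFF and APRIL receptors (1 of 7, 0 called), cell cycle (2 of 10, 0 called), adipocyte (1 of 8, 0 called) and T cell, macrophage and neutrophil genes (0 tested). Intervals are Clopper-Pearson, exact Poisson or exact conditional binomial. The level or share that a count of 0 allows is that of 3 counts. The authors' limits (more than 200 genes, more than 1000 UMIs, complexity above 0.7, under 10% mitochondrial and under 5% red blood cell UMIs) were an alternative. Doublets were not called, because members were chosen by contigs. Barcodes with more than 1 heavy chain or a TCR contig were removed in an alternative. Constant gene coordinates are RefSeq's for GRCm38.p6, the build of mm10. The steps were tested on simulated data. Pooled aortas give p-values that measure the spread between these 4 libraries. Python 3.11.15, scipy 1.17.1, pandas 2.3.3, numpy 2.4.6, matplotlib 3.10.9, R 4.3.3 and DESeq2 were used.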

Additional observations from a re-analysis of the deposited data

Results flagged for a closer look

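In the values below, the ratio of the level in switched to that in unswitched barcodes lay above 1 in 1 library and below 1 in another, with counting intervals on opposite sides of 1. The difference between the libraries was not tested, since each condition has 1 library. Jchain in the library labelled Healthy had a ratio of 3.44 (3.25 to 3.65). In AS its ratio was 0.347 (0.193 to 0.597), and MTZ-preventive had 0.275 (0.212 to 0.351). Of the 1468 Jchain UMIs behind the first value, 1057 were in the IGHV3-5 clone, and without that clone the ratio was 1.18 (1.07 to 1.31). For Ssr4 the library labelled Healthy had 1.73 (1.45 to 2.06), and MTZ-treated had 2.37 (1.22 to 4.70), against 0.613 (0.372 to 0.954) in MTZ-preventive. Hsp90b1, a chaperone of the endoplasmic reticulum, had 2.04 (1.77 to 2.34) in the library labelled Healthy against 0.396 (0.204 to 0.696) in MTZ-preventive. Klf2, a transcription factor of lymphocyte migration, had 1.29 (1.12 to 1.47) against 0.731 (0.537 to 0.974) in the same libraries, and 1.03 (0.87 to 1.20) without the IGHV3-5 clone in the first of them.

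A signal outside the compared classes was seen in MTZ-preventive. Of 866 Igha UMIs in that library, 7 lay in switched barcodes and 857 in barcodes that were neither switched nor unswitched. Among these were 2 barcodes with 10 or more Igha UMIs, and both had a light chain contig and no heavy-chain contig. The higher of them had 533 Igha UMIs, 1009 Jchain UMIs and 16416 UMIs in all. In the other 3 libraries no barcode outside the switched ones had more than 5 Igha UMIs.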

How the results depend on the processing

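The switched share changed with the contigs and clones that were counted. Contigs of at least 3 UMIs gave 31.4% for the library labelled Healthy, 49.1% for AS, 80.5% for MTZ-treated and 10.6% for MTZ-preventive. With barcodes of the gene expression list only it moved to 48.4% in AS and 5.92% in MTZ-preventive. Counting each clone once gave 0.356%, 27.3%, 18.2% and 3.36% in the same order, and leaving out clones of 10 or more barcodes, an alternative chosen after seeing the data, gave 0.198%, 16%, 21.3% and 3.6%. Clone sharing of switched barcodes with at least 3 UMIs was 88.5% in AS and 84.5% in MTZ-preventive. The mean difference in contig UMIs was 0.969 to 1.57 when 1 library was left out, 1.22 with each clone as 1 value and 0.792 without clones of 10 or more barcodes (2 libraries), but in the last 2 settings it was 0 in MTZ-preventive, which had 1.81 with every barcode. In AS the difference was 1.29 with each clone as 1 value and 0 with every barcode. None of these tests could reach 0.05. The count of 34 genes between switched and unswitched barcodes moved more. DESeq2 called 91 (75 higher, 16 lower). Without a filter on low counts 216 of 17689 genes were called, 99 higher and 117 lower, so that the higher share was 45.8% against 91.2%, 25 of the genes were shared, and the median change was -0.46. With 2 libraries in the fit, contigs of at least 3 UMIs gave 504 of 7467 (404 higher) and IGHA barcodes 269 (192 higher), and IGHG barcodes with 3 libraries gave 63 (57 higher). Leaving out 1 library gave 32 to 203 calls, with 203 without MTZ-treated and 139 without MTZ-preventive. The study's limits on barcodes left 2 libraries with enough switched barcodes (5 remained in AS and 8 in MTZ-treated) and gave 41 of 8330 genes, of which 3 were among the 34. The pairing of both sums by library is part of the design, and without the block edgeR called 0 genes, with 206 at an unadjusted p under 0.05. Leaving out the IGHV3-5 clone, chosen after seeing the data, turned the Jchain ratio of IgG to IgA from 2.59 to 0.71, and leaving out its barcode with the most heavy-chain UMIs gave Jchain 2285 CPM against 3445 in switched barcodes of the library labelled Healthy. For the 16 called genes named in the text, 170 of 216 alternatives kept the call, 46 lost it and 0 reversed. The cause of these shifts was not tested. Not run were a fit without the large clones, for which only MTZ-preventive had enough barcodes, the alternatives for IgA against IgG, and those for V region mutations. Shallow switched sums limit the test to 901 genes.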
